A study of Mus musculus with 16 samples.

Results

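The common effect of diphtheria toxin (DT) on natural killer (NK) cells was estimated over 2 tissues at once, as the difference between 8 libraries from mice given DT and 8 from mice given PBS, after the level of each tissue had been set aside. All 16 libraries of the series entered, and 13940 of the 49671 genes in the table had enough counts to be tested. NK cells were sorted as live CD45+ CD3- NKp46+ DX5+ cells from tumour-draining axillary lymph nodes (LN) and from enzyme-digested lungs, and the 4 groups (PBS and DT of either tissue) held 4 libraries each. The mice were FVB/N and of the genotype Cdh1F/F;Trp53F/F;Foxp3GFP-DTR, and they carried an orthotopically transplanted mammary tumour, labelled KEP, of 100 mm2. The floxed alleles, the Foxp3GFP-DTR allele and the tumour were common to all 4 groups, so the PBS mice carried the DT receptor as well. DT was given as 25 ug at times 0 and 7, and PBS at the same times; not given in the sources used here are the unit of time and the age of the mice. RNA from 5-10K sorted cells was made into libraries by Smart-seq2, which amplifies full-length cDNA and carries no molecular identifiers.

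NK cells are lymphocytes that kill target cells with perforin and granzymes without prior priming, under the joint control of activating and inhibitory receptors. Foxp3 is the transcription factor that defines regulatory T cells, and DT is used to remove these cells from Foxp3GFP-DTR mice. They carry CD3 and are outside the sort, so their loss was not measured in these libraries. Regulatory T cells are known to limit the division of NK cells, in part through their use of IL-2, for which both cell types compete. A dividing cell first turns on the genes of DNA replication and then those of the spindle, the kinetochore and cytokinesis.

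Total counts per library ran from 3929560 to 10744934, with p = 0.516 for a difference by treatment (exact permutation within tissue, two-sided). Ncr1, which encodes the sort marker NKp46, lay at 3770 to 6216 CPM with PBS (median 5357) and 2457 to 7917 with DT (median 4779), and Cd3e, the negative marker, at no more than 30.2 CPM. Foxp3 had 0 to 9 counts in a library under either treatment. Mitochondrially encoded genes made up 0.951 to 2.57% of counts with PBS and 1.24 to 4.93% with DT, where the lowest DT value belonged to LN DT 4 and the next was 3.11%. LN DT 1 and lung DT 1 stood apart from the other 14 libraries by Malat1, a nuclear non-coding RNA, at 18220 and 17160 CPM against no more than 8511. For some of the calls that rest on these libraries, the result without them is given as well. The design text speaks of biological replicates, but whether an LN and a lung library of the same number came from the same mouse is not stated.

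Over both tissues, 340 genes were higher with DT and 191 lower, which is 2.44% and 1.37% of those tested and 3.81% in both directions (edgeR quasi-likelihood F test, two-sided, p adjusted by Benjamini-Hochberg over 13940 genes and under 0.05). These thresholds define "rose" and "fell" throughout, and fold changes are log2 of DT over PBS. By p, the genes that rose were led by titin (Ttn), the inhibitory receptor gene Lilrb4a and genes of cell division such as Cit, Mki67, Knl1 and Top2a. By p, those that fell were led by chymosin (Cym), and they held the lymphotoxin gene Ltb and the cytokine gene Il16. The rises were larger than the falls: the median was 1.63 among the genes that rose, with 52 of 340 under 1, and -0.86 among those that fell, with 133 of 191 under 1 in size. Over all tested genes the median was 0.09, and 55.5% were above 0. The falling genes had a median level of 128.9 CPM over the 16 libraries, against 28.9 for the rising ones and 21.6 for all tested.

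Each tissue alone gave few calls. With the same spread, 9 genes were higher and 0 lower in LN (0.0646% of genes tested) and 8 were higher and 7 lower in lung (0.0574% and 0.0502%, 0.108% in all). Of the 340 shared rises, 7 were called in LN alone, 8 in lung alone and 327 in neither, while 2 of the 191 falls were called in lung alone and 189 in neither. The fold change had the same sign in both tissues for 339 of the 340 and for all 191 of the called genes, against 70.5% of all tested genes. The additive fit favours genes that moved alike in both tissues, so that agreement belongs to how they were called. The exception was AI593442, a gene named by a clone, whose counts went from 1 with PBS to 598 with DT in LN and stood at 1 and 0 in lung. Ighe, the immunoglobulin epsilon heavy chain, was also called from LN alone, with 1 count under PBS and 3537 under DT there, and 1 count under each in lung. In 68 of the risen and 62 of the fallen genes the 4 DT libraries did not overlap the 4 PBS libraries in either tissue; over all tested genes 84 were higher in this way (0.603%) and 91 lower (0.653%).

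**Figure D1:**
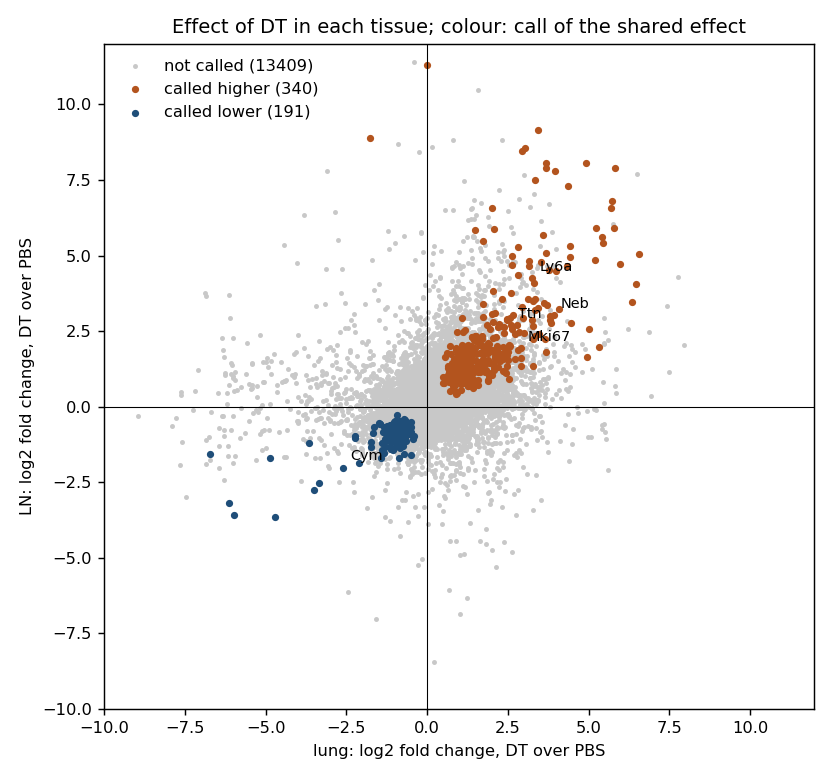
Each point is 1 of 13940 tested genes, with the log2 fold change (DT over PBS) in lung on the x axis and in LN on the y axis, coloured by the call of the shared effect (340 higher, 191 lower). The called genes lie at the upper right and lower left, with 1 exception, and those called higher reach 11.3 in LN (Ighe).

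The list of mitosis and cytokinesis genes held the most calls. Of 56 such genes, all tested, 53 had a shared fold change above 0, 21 rose and 0 fell, with a median of 1.69 (1.51 in LN and 1.90 in lung) beside 0.09 for all tested genes. The rises were 37.5% of the list, beside 2.44% of all tested genes. Of the 21 rises, 5 were also called when same-numbered LN and lung libraries of a treatment were taken as one animal (limma-voom with an estimated correlation, duplicateCorrelation). The 21 were Aspm, Birc5, Ccnb2, Cdca2, Cdca3, Cdca8, Cenpe, Cenpf, Cit, Ckap2l, Kif15, Kif22, Knl1, Mki67, Ncapg2, Ncaph, Nusap1, Spag5, Spc25, Top2a and Ttk. They encode spindle, kinetochore, condensin and cytokinesis proteins. The 4 with the smallest p, Cit, Mki67, Knl1 and Top2a, are shown by the 250 bases before their RefSeq start, read 5′ to 3′ on the gene's strand (GRCm38.p6), because promoters of mitotic genes are known to carry CHR elements and CCAAT boxes. Capitals mark each match to TTTGAA (CHR) or to CCAAT on either strand; AP-1, CRE and E2F letters are described after them and are not marked.
Cit, chr5:115845406-115845655, plus strand: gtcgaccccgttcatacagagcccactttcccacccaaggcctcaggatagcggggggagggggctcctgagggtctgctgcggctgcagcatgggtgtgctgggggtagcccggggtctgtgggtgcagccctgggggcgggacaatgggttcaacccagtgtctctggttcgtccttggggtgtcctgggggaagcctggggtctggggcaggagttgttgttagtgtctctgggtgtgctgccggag
Mki67, chr7:135716380-135716629, minus strand: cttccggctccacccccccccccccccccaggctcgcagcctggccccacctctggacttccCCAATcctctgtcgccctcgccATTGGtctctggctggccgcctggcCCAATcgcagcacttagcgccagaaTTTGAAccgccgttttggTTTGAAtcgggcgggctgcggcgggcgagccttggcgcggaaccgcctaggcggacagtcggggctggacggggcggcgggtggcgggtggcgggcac
Knl1, chr2:119046869-119047118, plus strand: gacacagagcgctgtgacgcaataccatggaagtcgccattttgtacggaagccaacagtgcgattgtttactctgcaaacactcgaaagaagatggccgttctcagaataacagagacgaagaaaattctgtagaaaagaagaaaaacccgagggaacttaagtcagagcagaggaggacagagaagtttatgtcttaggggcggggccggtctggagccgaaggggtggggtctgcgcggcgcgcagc
Top2a, chr11:99024190-99024439, minus strand: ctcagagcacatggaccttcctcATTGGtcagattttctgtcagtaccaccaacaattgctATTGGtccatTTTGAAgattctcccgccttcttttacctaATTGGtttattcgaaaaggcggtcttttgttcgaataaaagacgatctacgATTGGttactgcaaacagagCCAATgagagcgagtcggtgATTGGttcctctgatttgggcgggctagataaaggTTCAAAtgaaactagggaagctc

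The Mki67 window holds 2 CHR matches, 116 to 111 and 98 to 93 bases before the start, downstream of 3 CCAAT matches. The Top2a window holds 2 CHR and 6 CCAAT matches, and the windows of Cit and Knl1 hold neither. The Cit window precedes a RefSeq start but lies inside the gene model counted here, whose own start is further upstream and was not searched. Among the 20 of the 21 risen genes with an entry, 35.0% held TTTGAA, 65.0% held CCAAT and 25.0% held both. Over the first listed promoters of 27025 RefSeq genes these shares were 16.3%, 34.5% and 5.73%, and over 9698 tested genes 11.2%, 36.6% and 4.25%. Another 3 motifs were searched on both strands: the E2F motif GGCGGGAA was in 5.00% of the 20 and 1.88% of all promoters, the AP-1 motif TGANTCA in 5.00% and 6.87%, and the CRE motif TGACGTCA in 5.00% and 1.62%. Over the tested genes these 3 shares were 3.56%, 4.24% and 2.75%, and 5.00% is 1 promoter of 20. Among 200 promoters of all risen genes TTTGAA stood in 19%, and among 142 of fallen genes in 5.63%. CCAAT stood in 38.5% of the risen and 38.7% of the fallen, and the E2F motif in 3.5% and 2.82%. The AP-1 motif stood in 7% and 4.93%, and the CRE motif in 4% and 2.11%. A match is a run of letters and not a measured site.

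Cit (ENSMUSG00000029516, chr5:115845278-116008947) encodes citron kinase, which acts at the midbody at the end of cytokinesis. Its level was 2.63, 9.94, 6.82 and 7.35 CPM in LN PBS and 33.6, 53.6, 45.4 and 13.4 in LN DT, and 11.9, 9.99, 12.2 and 13.8 CPM in lung PBS and 169.9, 84.4, 59.4 and 68.1 in lung DT. The DT libraries lay above all PBS libraries of their tissue, with the lowest DT value in LN DT 4 and the highest in lung DT 1. The shared fold change was 2.72 (SE 0.33, adjusted p = 0.000534), with 2.45 in LN and 2.99 in lung. Mki67 (ENSMUSG00000031004, chr7:135689784-135716361) encodes Ki-67, a protein of mitotic chromosomes that is used as a marker of cycling cells. It was measured at 5.78, 14.4, 12.9 and 16.3 CPM in LN PBS and 68.5, 43.6, 50.9 and 27.2 in LN DT, and at 27.1, 19.1, 24.4 and 11.3 CPM in lung PBS and 244.5, 133, 149.8 and 86.5 in lung DT. Again no DT library overlapped the PBS libraries of its tissue, and the fold change was 2.43 (SE 0.31, adjusted p = 0.000534). The difference between tissues (1.94 in LN and 2.90 in lung) had an unadjusted interaction p of 0.101. Knl1, the kinetochore scaffold, had 5.57, 3.88, 9.29 and 8.71 CPM in LN PBS and 38.5, 19.01, 30.6 and 12.8 in LN DT, and 7.84, 3.61, 10.03 and 9.31 CPM in lung PBS and 74.5, 65.2, 37.5 and 42.05 in lung DT, a fold change of 2.35 (SE 0.33, adjusted p = 0.00196) without overlap in either tissue. Top2a, the topoisomerase that untangles sister chromatids, ranged over 15.3 to 42.7 CPM with PBS (median 26.7) and 41.7 to 382.5 with DT (median 95.5), with the highest value, 382.5 CPM, in lung DT 1. Its fold change was 2.10, adjusted p = 0.00559, and 1.55 (adjusted p = 0.00198) without both DT libraries numbered 1.

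In every one of the 16 fits that leave out a library, 8 mitotic genes rose: Cit, Mki67, Knl1, Top2a, Cenpe, Ncapg2, Kif15 and Spag5. Cenpe encodes a kinetochore motor, Ncapg2 a condensin subunit, Kif15 a spindle motor and Spag5 a spindle protein. Cenpe had 2.73, 5.45, 3.97 and 5.66 CPM in LN PBS and 49.7, 26.1, 31.2 and 12.2 in LN DT, and 9.53, 6.66, 13.9 and 11.1 CPM in lung PBS and 111, 12.9, 41.5 and 28.6 in lung DT. The lung DT 2 value fell within the PBS range, so the groups overlapped in lung; the fold change was 2.48, adjusted p = 0.00559. Ttk, a spindle checkpoint kinase, rested on lung DT 1: it stood at 105, 0, 9.28 and 2.23 CPM in lung DT, and without both DT libraries numbered 1 its adjusted p was 0.185. The other 20 kept their call without these 2 libraries, where the median of the list was 1.37. Averaged over the 56 genes, log2(CPM + 1) was 2.24 to 3.63 with PBS and 3.56 to 5.41 with DT. All DT libraries were above the PBS libraries of their own tissue. The exact permutation within tissue gave p = 0.000408, the smallest it can give. With same-numbered libraries kept together p was 0.0286, again the smallest possible. Both p are unadjusted. The list was chosen with earlier results of these data known, so they are no independent support. A larger share of cycling cells and more of these RNAs per cell cannot be told apart in sorted bulk RNA.

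Genes of DNA replication moved less. Of 52 tested, 34 were above 0, 10 rose (Brca1, Clspn, Pola1, Pole2, Prim1, Prim2, Rfc3, Rrm2, Tk1 and Tyms) and 1 fell (Pold2), with a median of 0.39. Rises were 19.2% and falls 1.92% of the list, beside 2.44% and 1.37% of all tested genes. With one animal per number 0 of these 10 rises and 0 falls were called. Pola1, the catalytic subunit of DNA polymerase alpha, which lays the primers of replication together with Prim1 and Prim2, had 12.6, 20.8 and 23.4 CPM (lowest, median, highest of 8) with PBS and 23.4, 48.99 and 71.3 with DT, a fold change of 1.33, adjusted p = 0.00823. Clspn, the checkpoint mediator claspin, had 0.105, 2.62 and 3.67 CPM (lowest, median, highest of 8) with PBS and 3.63, 12.4 and 27.6 with DT (2.60, adjusted p = 0.0152), and Tyms, thymidylate synthase, had 11.9, 30.4 and 55.7 CPM (lowest, median, highest of 8) with PBS and 42.9, 81.6 and 230.1 with DT (1.87, adjusted p = 0.0161). These 3 rose in each of the 16 fits that leave out 1 library. Outside these lists, Dtl, the substrate receptor of a ubiquitin ligase that degrades licensing factors in S phase, had 8.52, 15.9, 6.196 and 9.28 CPM in LN PBS and 46.3, 48.99, 50.7 and 25.5 in LN DT, and 21.4, 11.9, 31.6 and 24.4 CPM in lung PBS and 101, 93.4, 41.4 and 93.0 in lung DT. Its DT and PBS libraries did not overlap in either tissue, and its fold change was 1.99 (SE 0.27, adjusted p = 0.00125). Pclaf, a binding partner of the sliding clamp PCNA, showed the same order, with 3.89, 14.02 and 17.8 CPM (lowest, median, highest of 8) with PBS and 21.7, 47.1 and 148 with DT and a fold change of 2.08, adjusted p = 0.00559. Among 27 tested regulators of the cell cycle, 2 rose and 2 fell: cyclin E2 (Ccne2, 2.74, adjusted p = 0.00683) and E2f7 (3.27, adjusted p = 0.0412) rose, and cyclin D2 (Ccnd2, -1.02, adjusted p = 0.0167) and Cdk4 (-0.67, adjusted p = 0.0367) fell. Calls were 14.8% of these regulators, beside 3.81% of all tested genes. Ccnd2 and Cdk4 form the kinase of the G1 phase. Ccnd2 stood at 1016, 1659, 1019 and 1244 CPM in LN PBS and 296, 499, 436 and 786 in LN DT, and at 1380, 1734, 1399 and 1254 CPM in lung PBS and 641.5, 907.5, 895 and 997 in lung DT, lower in all DT libraries than in the PBS libraries of the same tissue. E2f7 and Cdk4 rose and fell in only 5 and 7 of the 16 fits that leave out a library.

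**Figure D2:**
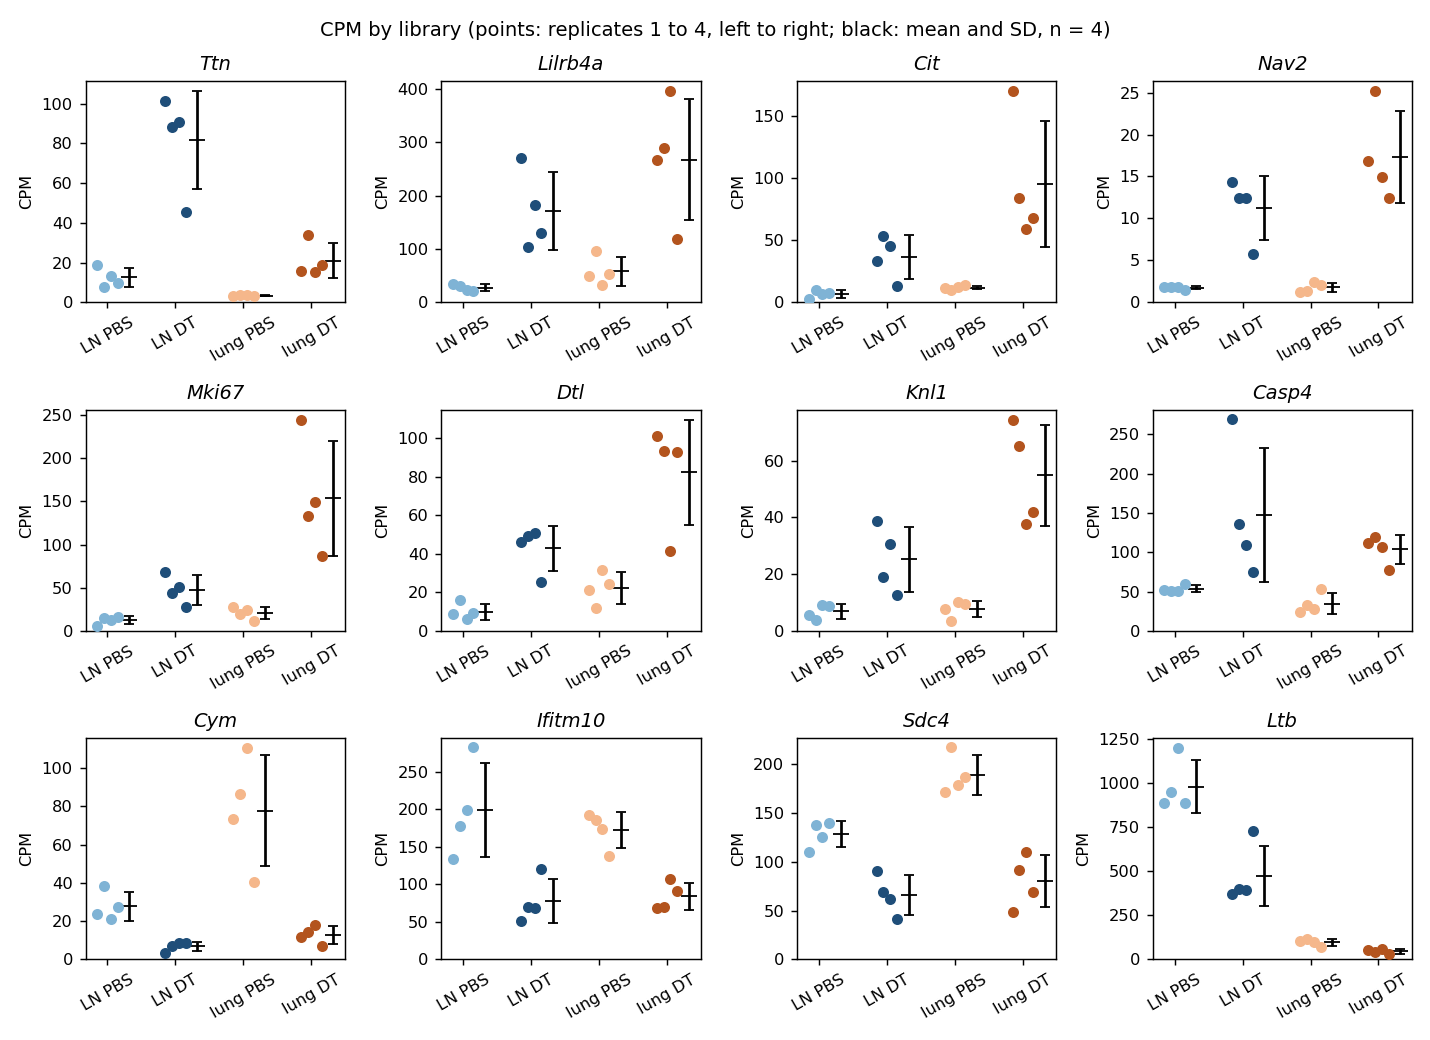
CPM of 12 genes (y axes, linear, from 0) in the 16 libraries, with points for replicates 1 to 4 of each group and black bars for mean and SD (n = 4). In all 12 genes the DT libraries (dark) lie on one side of the PBS libraries (light) of the same tissue, above in the first 8 and below in Cym, Ifitm10, Sdc4 and Ltb.

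The gene with the smallest p was Ttn (ENSMUSG00000051747, chr2:76703980-76982547), which encodes titin, the giant elastic protein of muscle sarcomeres. Ttn had 19.03, 7.75, 13.5 and 9.96 CPM in LN PBS and 101, 88.1, 90.96 and 45.5 in LN DT, and 3.28, 3.88, 3.505 and 3.103 CPM in lung PBS and 15.8, 33.8, 15.1 and 18.9 in lung DT. Its level was higher in LN than in lung under both treatments, and the fold change was 2.69 in LN and 2.60 in lung. Every DT library exceeded the PBS libraries of its tissue. The shared fold change was 2.65 (SE 0.27, adjusted p = 8.55e-05). Neb, which encodes nebulin, another very large sarcomere protein, had 2.52, 1.21, 0.991 and 1.92 CPM in LN PBS and 34.3, 7.53, 9.02 and 4.29 in LN DT, and 0.695, 0.278, 0.604 and 0.745 CPM in lung PBS and 1.72, 9.14, 12.9 and 13.5 in lung DT, low levels with a fold change of 3.45 (SE 0.57, adjusted p = 0.00559). Nav2, which encodes the cytoskeleton-binding neuron navigator 2, had 1.79, 1.82, 1.86 and 1.47 CPM in LN PBS and 14.4, 12.4, 12.4 and 5.72 in LN DT, and 1.19, 1.39, 2.42 and 2.11 CPM in lung PBS and 16.8, 25.2, 14.9 and 12.4 in lung DT. PBS libraries of both tissues stayed at or below 2.42 CPM and DT libraries at or above 5.72, a fold change of 2.98 (SE 0.37, adjusted p = 0.000534). The summed exons of these genes are long, at 116825 bases for Ttn, 26582 for Neb and 32228 for Nav2. Among protein-coding genes with a known length the median was 5402 bases for the 237 that rose, 3094.5 for the 186 that fell and 4452.5 for the 11542 tested. What part length had in the calls was not tested.

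Inhibitory receptors were represented by 3 rises and 0 falls among 23 tested, with 19 above 0 and a median of 0.94. That is 13% of the list beside 2.44% of all tested genes, and 1 of the 3 was also called with one animal per number. Lilrb4a (ENSMUSG00000062593, chr10:51480679-51496613), an inhibitory receptor of the immunoglobulin superfamily with ITIM motifs, had 35.3, 29.9, 23.9 and 21.6 CPM in LN PBS and 269.5, 104, 182 and 130.4 in LN DT, and 49.1, 96.6, 33.1 and 53.8 CPM in lung PBS and 267, 288, 396 and 119 in lung DT. No DT library overlapped the PBS libraries of its tissue, and the fold change was 2.42 (SE 0.28, adjusted p = 0.000451), with 2.63 in LN and 2.21 in lung. The gene model counted under this name spans RefSeq's Lilr4b (chr10:51480612-51486329) and Lilrb4a (chr10:51490898-51496613), so the value cannot be assigned to one of these near-identical genes. Cd300lf, another inhibitory receptor of myeloid cells and NK cells, had 40.7, 34.8, 30.5 and 40.4 CPM in LN PBS and 110, 103, 139 and 100.4 in LN DT, and 109.6, 80.8, 98.5 and 114 CPM in lung PBS and 218, 117, 126 and 132 in lung DT, a fold change of 1.09, adjusted p = 0.0151. Its DT and PBS libraries were far apart in LN and close in lung (1.62 in LN and 0.56 in lung; edgeR interaction, unadjusted p of 0.00568, adjusted 0.839). Tigit, an inhibitory receptor for nectin-like ligands, had 45.2, 87.5 and 172 CPM (lowest, median, highest of 8) with PBS and 84.6, 219 and 453 with DT, and its fold change of 1.38, adjusted p = 0.0435 became an adjusted p of 0.0694 without both DT libraries numbered 1.

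Among the other rises were Casp4, Ly6a, Ccl9, Nsd2 and Rgs1. Casp4, the caspase that senses cytosolic lipopolysaccharide, had 52.3, 50.6, 50.9 and 59.8 CPM in LN PBS and 269, 136, 109 and 75.1 in LN DT, and 24.1, 33.03, 28.4 and 53.4 CPM in lung PBS and 112, 119, 107 and 77.2 in lung DT. All DT libraries were above the PBS libraries of their tissue, and the fold change was 1.52 (SE 0.24, adjusted p = 0.00547). Ly6a, which encodes Sca-1, had 3.68, 13.4, 7.43 and 0.679 CPM in LN PBS and 145, 108.5, 127 and 103 in LN DT, and 3.28, 21.4, 6.29 and 6.46 CPM in lung PBS and 104, 110.2, 126 and 4.71 in lung DT. The value of lung DT 4 lay within the lung PBS range while the other 7 DT libraries were all above 100 CPM; the fold change was 3.76 (SE 0.60, adjusted p = 0.00559). Ccl9, a chemokine, ranged over 4.34 to 83.8 CPM with PBS (median 14.96) and 22.3 to 215 with DT (median 54.99) with a fold change of 2.02, adjusted p = 0.00559 and overlapped between treatments in lung. Nsd2, a histone H3 lysine 36 methyltransferase, ranged over 33.3 to 66.9 CPM with PBS (median 41.7) and 54.7 to 162 with DT (median 98.3), a fold change of 1.27, adjusted p = 0.00559. Rgs1, a brake on chemokine receptor signalling, had 85.7, 90.8, 70.3 and 51.02 CPM in LN PBS and 691, 347, 389 and 281 in LN DT, and 1090, 783, 764 and 856 CPM in lung PBS and 2960, 944, 1191 and 2835 in lung DT, apart in LN but with lung DT 2 inside the lung PBS range, and a fold change of 1.85, adjusted p = 0.00683. These 5 genes rose in each of the 16 fits that leave out a library.

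The fall with the smallest p was that of Cym (ENSMUSG00000046213, chr3:107211293-107221732), which encodes the aspartic protease chymosin. Cym had 23.8, 38.4, 21.2 and 27.3 CPM in LN PBS and 3.25, 6.87, 8.54 and 8.47 in LN DT, and 73.5, 86.3, 110.5 and 40.7 CPM in lung PBS and 11.8, 14.5, 18.1 and 6.81 in lung DT. Every DT library was below the PBS libraries of its tissue, and the fold change was -2.31 (SE 0.29, adjusted p = 0.000534), with -2.02 in LN and -2.60 in lung. Ltb, which encodes lymphotoxin beta, the membrane anchor of a cytokine that shapes lymph nodes, had 885, 950.5, 1198 and 889 CPM in LN PBS and 373, 397, 394 and 726 in LN DT, and 105, 115, 95.7 and 67.3 CPM in lung PBS and 54.95, 39.6, 60.4 and 29.2 in lung DT. Levels were higher in LN than in lung, and the fall was alike, -1.05 in LN and -1.06 in lung, with the highest DT value in LN DT 4; the shared fold change was -1.05 (SE 0.20, adjusted p = 0.012). Il16, a cytokine made as a precursor by lymphocytes, had 292, 223, 294 and 252.5 CPM in LN PBS and 154, 138, 147.5 and 203 in LN DT, and 140.5, 105.5, 93.2 and 104 CPM in lung PBS and 53.8, 59.98, 72.4 and 62.2 in lung DT (-0.78, adjusted p = 0.0136). Ifitm10, of the interferon-induced transmembrane family, had 134, 182 and 283 CPM (lowest, median, highest of 8) with PBS and 51.1, 69.9 and 119.8 with DT, a fold change of -1.20 (SE 0.20, adjusted p = 0.00687). Sdc4, the heparan sulphate proteoglycan syndecan 4, had 110.4, 155 and 218 CPM (lowest, median, highest of 8) with PBS and 41.2, 69.1 and 109.7 with DT, a fold change of -1.10 (SE 0.19, adjusted p = 0.00731). In all of these the treatments did not overlap within a tissue.

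Of the other named falls, Laptm4a (-0.87, adjusted p = 0.0103) encodes a lysosomal membrane protein and Rab27b (-1.31, adjusted p = 0.0134) a GTPase of granule release. Atg101 (-1.06, adjusted p = 0.00727) is a subunit of the kinase complex that starts autophagy. Elavl4 (-1.54, adjusted p = 0.0104) and the cold-induced Cirbp (-1.25, adjusted p = 0.0141) encode RNA-binding proteins, and Ddx18 (-0.997, adjusted p = 0.0145) a helicase of the nucleolus. Cxxc5 (-1.55, adjusted p = 0.0103) encodes a zinc finger protein that binds unmethylated CpG, and Acat1 (-0.94, adjusted p = 0.0161) a mitochondrial thiolase. Spg21 (-0.93, adjusted p = 0.0125) was the least variable with PBS, at 217 ± 18.1 CPM with PBS and 114 ± 33.4 with DT (SD, n = 8). Among these 9 genes the treatments overlapped for Cxxc5 in lung and Rab27b in LN, and for no other.

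The receptor, effector and maturation lists of NK cells held few calls each. Calls made up 3.45% of activating receptors and adaptors, 7.69% of Ly49 receptors and 5.26% of cytotoxic effectors, beside 3.81% of all tested genes. They made up 6.25% of mature markers, 17.6% of immature markers and 8.33% of transcription factors. Of 29 activating receptors and adaptors 0 rose and 1 fell, Klrb1c, which encodes NK1.1 or NKR-P1C, at 828, 845.5, 877.5 and 961.5 CPM in LN PBS and 396, 427, 506 and 978 in LN DT, and 1258, 856, 889.6 and 802 CPM in lung PBS and 511, 325, 420.4 and 525 in lung DT. LN DT 4 lay above all LN PBS libraries while the other DT libraries lay below the PBS libraries of their tissue, and the fold change was -0.85, adjusted p = 0.0318, called in 6 of the 16 fits that leave out a library. Among 13 tested Ly49 receptors 1 rose, Klra2 (1.76, adjusted p = 0.0391). Among 19 tested cytotoxic effectors 0 rose and 1 fell, granzyme M (Gzmm, -1.05, adjusted p = 0.0405), and the median was -0.10. Perforin (Prf1), the pore-forming protein, had 1482, 1900 and 3664 CPM (lowest, median, highest of 8) with PBS and 323.5, 1534 and 3556 with DT and did not pass (-0.35, adjusted p = 0.607). The mature NK markers gave 0 rises and 1 fall in 16 (Ly6c2, -1.02, adjusted p = 0.0273), and the immature markers 2 rises (Ctla2a, 1.18, adjusted p = 0.0235, and Ctla2b, 0.97, adjusted p = 0.0402) and the fall of Ltb in 17. Of 24 NK transcription factors, Runx1 rose (0.79, adjusted p = 0.0318) and Gata3 fell (-0.89, adjusted p = 0.0496). Gata3 was not called without both DT libraries numbered 1.

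Calls among cytokines and their receptors were few in number. They made up 15.8% of cytokines and chemokines and 11.5% of receptors, beside 3.81% of all tested genes. The shares were 13.5% for the interferon gamma genes and 6.25% for the type I interferon genes. Il2ra, which encodes the alpha chain of the high-affinity IL-2 receptor, had 8.73, 6.79, 7.68 and 8.14 CPM in LN PBS and 53.6, 25.9, 28.5 and 40.2 in LN DT, and 1.39, 3.88, 1.81 and 0.869 CPM in lung PBS and 10.04, 3.38, 6.51 and 4.98 in lung DT. DT libraries were higher in LN without overlap, and overlapped in lung only through lung DT 2, with a fold change of 1.98 (SE 0.36, adjusted p = 0.0103). Il15ra, the subunit that presents IL-15, rose as well (0.99, adjusted p = 0.0269), and Il10rb fell (-0.59, adjusted p = 0.0442), which made 2 rises and 1 fall of 26 receptors. Of 19 cytokines and chemokines, Tgfb1 rose (1.10, adjusted p = 0.0399), and so did Il10, which was at 0 in the 4 LN PBS libraries and at 7.37, 7.53, 3.49 and 5.39 CPM in LN DT. Il10 reached 56.2 CPM in lung DT 1, and its adjusted p of 0.0361 became 0.102 without both DT libraries numbered 1. Among 37 genes induced by interferon gamma 4 rose (Gbp8, H2-Q10, Iigp1 and Ly6a) and 1 fell (Psmb10), with a median of 0.20; 1 of the 4 rises and 0 falls were also called with one animal per number. Gbp8, a guanylate-binding protein, had 2.73, 2.91, 4.83 and 4.53 CPM in LN PBS and 41.3, 17.03, 27.1 and 31.04 in LN DT, and 5.86, 8.603, 5.56 and 3.85 CPM in lung PBS and 20.9, 27.2, 27.3 and 3.14 in lung DT, higher with DT in all libraries but lung DT 4, which lay below lung PBS (2.34, adjusted p = 0.0103). Of 32 type I interferon genes, Ifi27l2a rose (2.92, adjusted p = 0.0359) and Ifit1 fell (-2.09, adjusted p = 0.0491). Among 26 genes of trafficking and adhesion the integrin beta 1 chain Itgb1 (-1.06, adjusted p = 0.0377) and the P-selectin ligand Selplg (-1.05, adjusted p = 0.0463) fell.

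Metabolic and housekeeping groups differed in direction. Calls made up 60% of mitochondrially encoded genes, 11.1% of nuclear oxidative phosphorylation genes and 4.55% of glycolytic genes, beside 3.81% of all tested genes. Of 10 tested mitochondrially encoded genes all were above 0 and 6 rose (mt-Co1, mt-Nd1, mt-Nd2, mt-Nd4, mt-Nd5 and mt-Nd6), with a median of 1.20. With one animal per number 0 of the 6 were called, and with the mitochondrial share of counts as a covariate the median was -0.05. That share is made of these genes' own counts, so the covariate takes up their change and is no check on them. mt-Nd4, a subunit of respiratory complex I, had 675, 809, 557 and 539 CPM in LN PBS and 2378, 1975, 1648 and 674 in LN DT, and 395, 628, 828 and 1224 CPM in lung PBS and 1985, 1483, 1957 and 1396 in lung DT (1.26, adjusted p = 0.0163). Of 36 subunits of oxidative phosphorylation encoded in the nucleus 0 rose and 4 fell: Atp5a1 (-0.87, adjusted p = 0.0299) and Atp5b (-0.89, adjusted p = 0.0348) of ATP synthase, Sdha of complex II and Uqcrc1 of complex III. The median of these 36 was -0.07, and 0 of the 4 falls were called with one animal per number. Of 22 glycolytic genes 17 were below 0 and enolase 1 (Eno1) fell, at -1.01, adjusted p = 0.0334. The 59 ribosomal protein genes had 0 calls and a median of 0.085, beside 0.094 for all tested genes. Immediate early and AP-1 genes (25 tested), MYC and ribosome biogenesis (29), cholesterol and fatty acid synthesis (25) and clustered histones (11) also had 0 calls. In the remaining groups, NF-kappaB had the rise of Rel (0.87, adjusted p = 0.0319) in 17 genes, the BCL-2 family those of Bcl2a1b and Bcl2a1d in 13, and the heat shock and unfolded protein genes the fall of Herpud1 (-0.75, adjusted p = 0.0189) in 26. TGF-beta signalling had the rise of Tgfb1 and the fall of Ski in 15, the STAT5 genes the rise of Il2ra and the fall of Ccnd2 in 20, and residency markers the rise of Rgs1 and the fall of Tmem176b in 16. Calls in these remaining groups ran from 3.85% (heat shock and unfolded protein) to 15.4% (BCL-2 family) of the list.

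**Figure D3:**
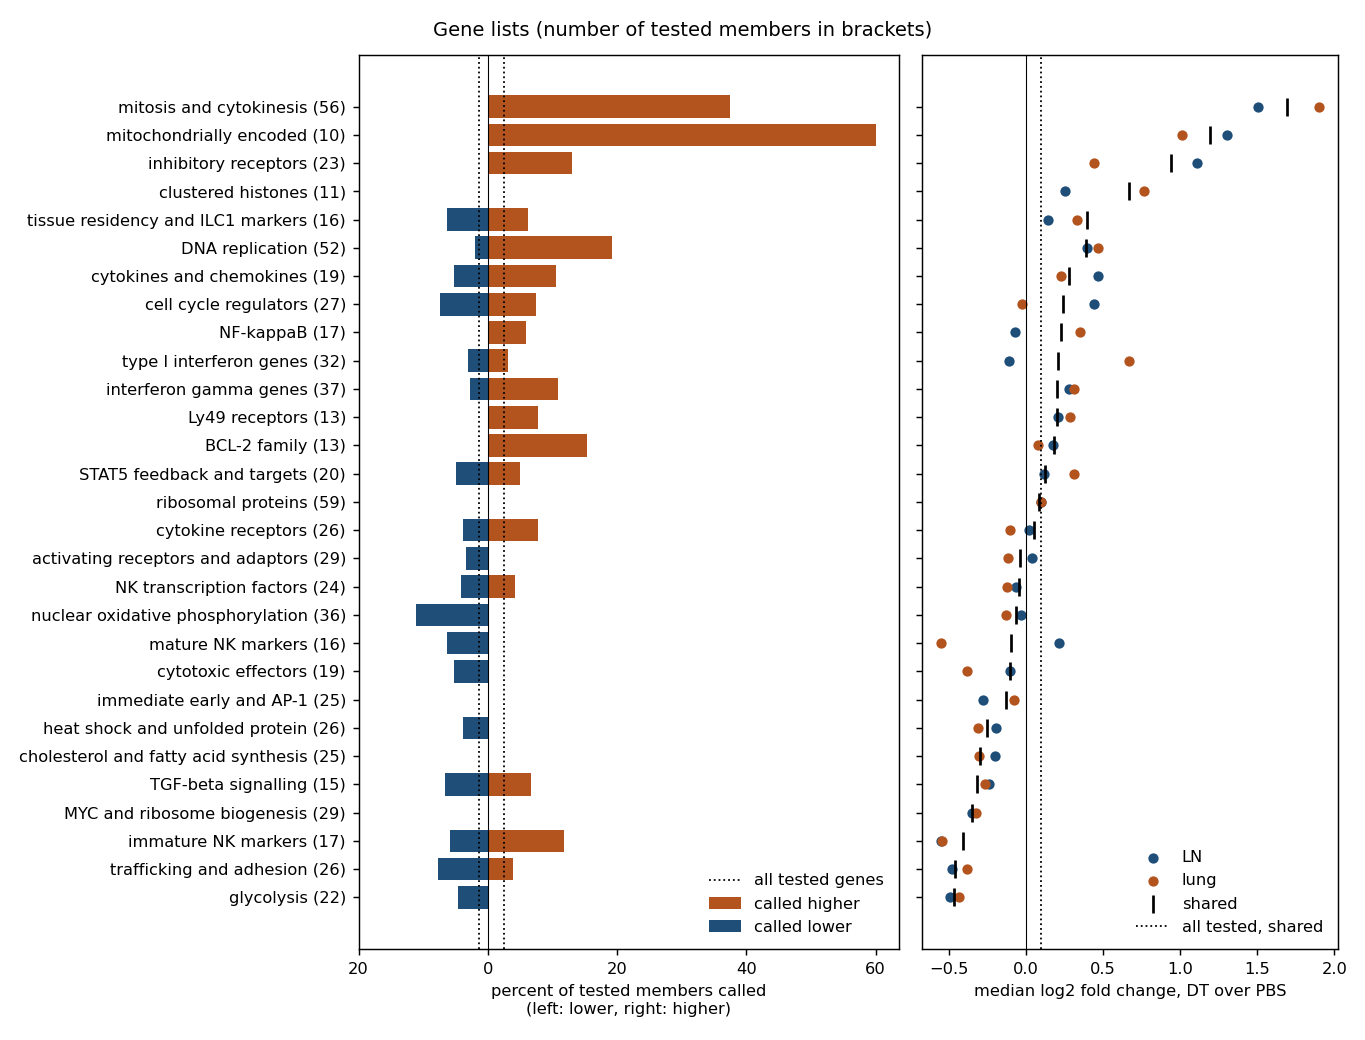
Left, the percent of each list's tested members called higher (right of 0) or lower (left of 0), for the lists of NK cell genes, with dotted lines for all tested genes (2.44% higher, 1.37% lower). Right, the median log2 fold change (DT over PBS) of each list in LN, in lung and shared, with the dotted line at 0.09 for all tested genes; the shared median of mitosis and cytokinesis is 1.69.

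Some measures of the libraries moved with DT beside these genes. The mitochondrial share was higher with DT in the exact permutation within tissue (p = 0.00163, adjusted over 18 measures 0.0293), as were Malat1 (p = 0.00735, adjusted 0.0441) and the summed levels of plasma cell genes (p = 0.00898, adjusted 0.0441) and of dendritic cell genes (p = 0.00980, adjusted 0.0441). These tests take LN and lung libraries as independent. With same-numbered libraries of a treatment kept together (exact permutation, 4 pairs against 4) p was 0.0286, the smallest possible, for the mitochondrial share and for plasma cell genes. It was 0.0571 for Malat1 and 0.114 for dendritic cell genes, which then did not pass. Xist, another nuclear non-coding RNA, rose as well, from 224.7, 347 and 574 CPM (lowest, median, highest of 8) to 468, 949 and 1307 (log2 fold change 1.40, adjusted p = 0.00823). Plasma cell genes summed to 396 to 532 CPM with PBS and 633 to 2754 with DT in LN, and to 162 to 265 with PBS and 146 to 330 with DT in lung. Of 18 such genes 11 were tested and 9 were above 0, where 55.5% of all tested genes were above 0. The 3 rises, Ighe, Iglc1 and Iglc2, were 27.3% of the tested members, beside 2.44% of all tested genes. Prg2 was at 0 counts in all libraries, and Sdc1, which encodes CD138, had 27 counts with PBS and 41 with DT. Dendritic cell genes summed to 179 to 215 CPM with PBS and 155 to 668 with DT in LN, and to 137 to 205 with PBS and 204.5 to 278 with DT in lung. All 11 tested members were above 0 with 0 calls, and Clec9a had 0 counts with PBS and 39 with DT. The part of either list in the rises and falls was not tested.

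B cell genes (18 tested, 17 above 0, median 1.64) and T cell genes (14 tested, 13 above 0, median 0.54) had 0 calls, and their summed levels did not pass the exact permutation within tissue (p = 0.839 and 0.253). Of all tested genes 55.5% were above 0, with a median of 0.09. B cell sums were 1018 to 1462 CPM in LN PBS and 1103 to 3577 in LN DT. In lung they were 399.9 to 9352 CPM with PBS and 260.4 to 5090 with DT. Regulatory T cell genes had 1 call in 9 (11.1%, beside 3.81% of all tested genes), that of Il2ra. Their sums were 328.5 to 382 CPM with PBS and 334.6 to 694 with DT in LN. In lung they were 228.6 to 265 CPM with PBS and 163 to 204 with DT, so every lung DT sum lay below lung PBS. The exact permutation, which averages the tissues, gave p = 0.989, and lung alone was not tested. Macrophage and monocyte genes summed to 392.5 to 818.5 CPM in LN PBS and 261.8 to 495.5 in LN DT. In lung they summed to 1075 to 6752 CPM with PBS and 674 to 11470 with DT, highest in lung DT 2 (exact permutation within tissue, p = 0.416). The part of such cells in the rises and falls was not tested. Of 16 macrophage and monocyte genes tested, 8 were above 0 and 8 below, with a median of 0.04. Calls made up 12.5% of them, beside 3.81% of all tested genes. Chil3, a chitinase-like protein, rose (4.19, adjusted p = 0.0326), and Ly6c2, also listed as a mature NK marker, fell. Chil3 had 57.99, 171, 21.8 and 8.56 CPM in lung PBS and 1289, 6738, 2082 and 156 in lung DT and no more than 8.57 CPM in LN, and its adjusted p was 0.053 without both DT libraries numbered 1. Of 3 tested basophil and mast cell genes 1 rose (33.3%), Il4, which other cells also make. Its counts went from 3 over the 8 PBS libraries to 122 with DT (ratio 43.4, 95% counting interval 14.5 to 213). Neutrophil, epithelial, endothelial and fibroblast, and erythroid genes had 0 calls. ILC2 genes had the fall of Gata3 (14.3% of 7 tested), which was not called without both DT libraries numbered 1.

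**Figure D4:**
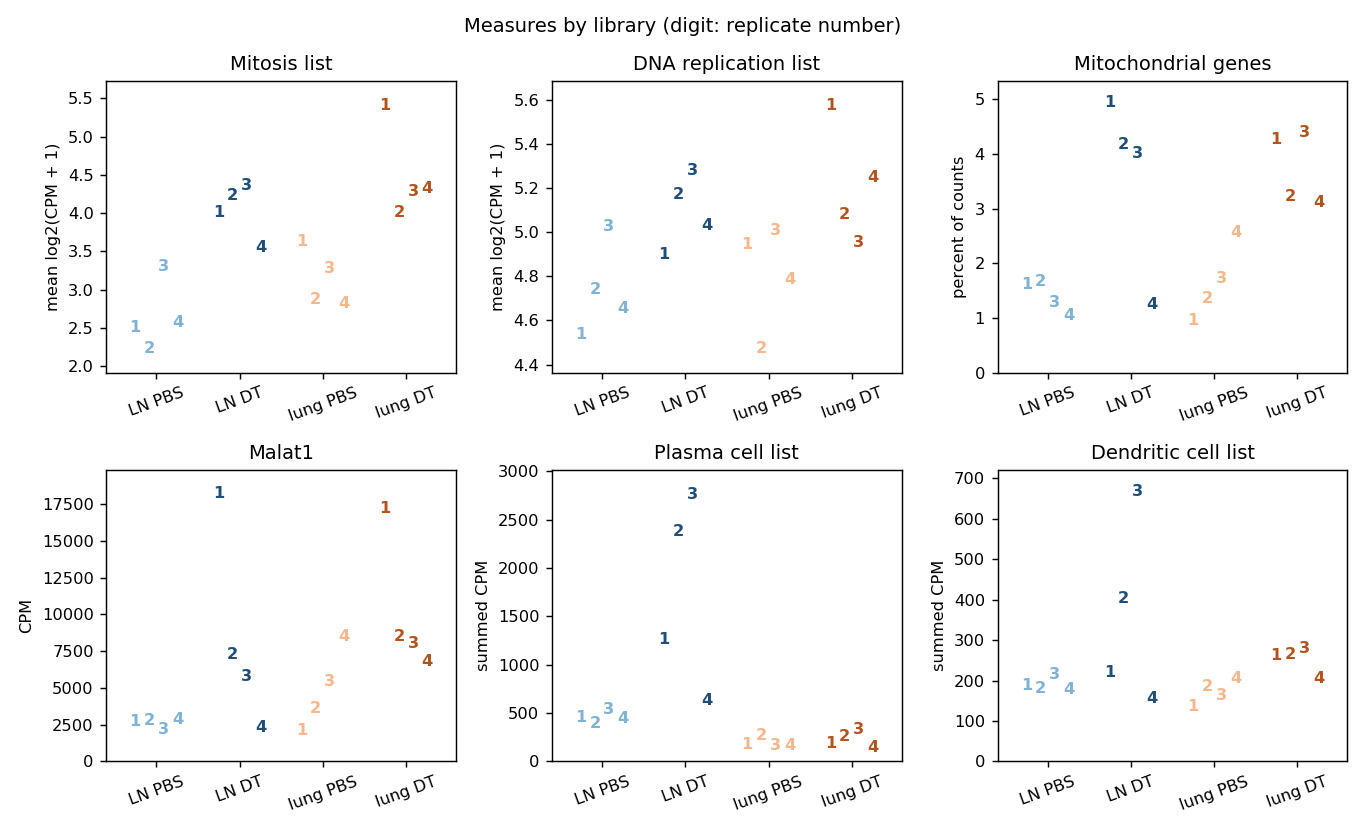
Measures per library on linear axes (the first row's first 2 panels are mean log2(CPM + 1) and do not start at 0), with digits for replicate numbers. The mitosis list is higher in every DT library than in the PBS libraries of its tissue, while LN DT 4 lies among LN PBS for the mitochondrial share and Malat1.

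The number of genes called depended on single libraries. The 340 rises and 191 falls became 688 and 615 without LN DT 4, whose mitochondrial share and Malat1 lay within the LN PBS range, and 50 and 28 without lung PBS 3. Without LN PBS 1 to 4 in turn there were 210, 187, 98 and 92 rises and 115, 104, 39 and 43 falls. Without LN DT 1, 2 or 3 there were 130, 90 and 128 rises and 114, 35 and 48 falls. Without lung PBS 1, 2 or 4 there were 66, 128 and 434 rises and 32, 81 and 217 falls, and without lung DT 1 to 4 there were 402, 223, 203 and 396 rises and 346, 95, 83 and 290 falls. All 16 of these fits called 49 of the 340 rises and 25 of the 191 falls, and the 15 named genes of each direction were among them. Without both DT libraries numbered 1 there were 584 rises and 641 falls, which included 262 of the 340 and 184 of the 191.

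Whether the 16 libraries are independent bears on these counts. Same-numbered DT libraries of LN and lung deviated together from their group means, with correlations over genes of 0.412, 0.194, 0.230 and 0.184 for numbers 1 to 4, against -0.022, 0.191, -0.030 and -0.001 for PBS libraries. LN DT 1, 3 and 4 correlated most with the lung DT library of their own number, but LN DT 2 with one of another number. Among LN PBS libraries only number 2 correlated most with its own number in lung PBS. With same-numbered libraries of a treatment taken as one animal (limma-voom with duplicateCorrelation, consensus 0.251) 33 genes rose and 33 fell, of which 30 and 33 were among the genes above; the same method with independent libraries gave 257 and 271. Ttn (adjusted p = 0.0051), Lilrb4a (0.0051), Mki67 (0.00684), Cit (0.0281), Nav2 (0.0155), Knl1 (0.0312) and Cym (0.0155) were called in that fit, as were 25 of the 30 named genes in all; Pclaf, Ly6a, Cenpe, Neb and Ddx18 were not. When the counts of such libraries were summed, 4 against 4, 18 genes rose and 1 fell, Cym. With the mitochondrial share of counts as a covariate, 0 genes rose and 0 fell (249 and 104 at an unadjusted p under 0.05), with standard errors 1.55 times as large at the median. In that fit 326 of the 340 and all 191 had the same sign as before, with medians of 0.76 and -0.41, and the mitotic list a median of 1.52. The covariate itself differed between treatments, so its part and that of DT cannot be told apart.

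**Figure D5:**
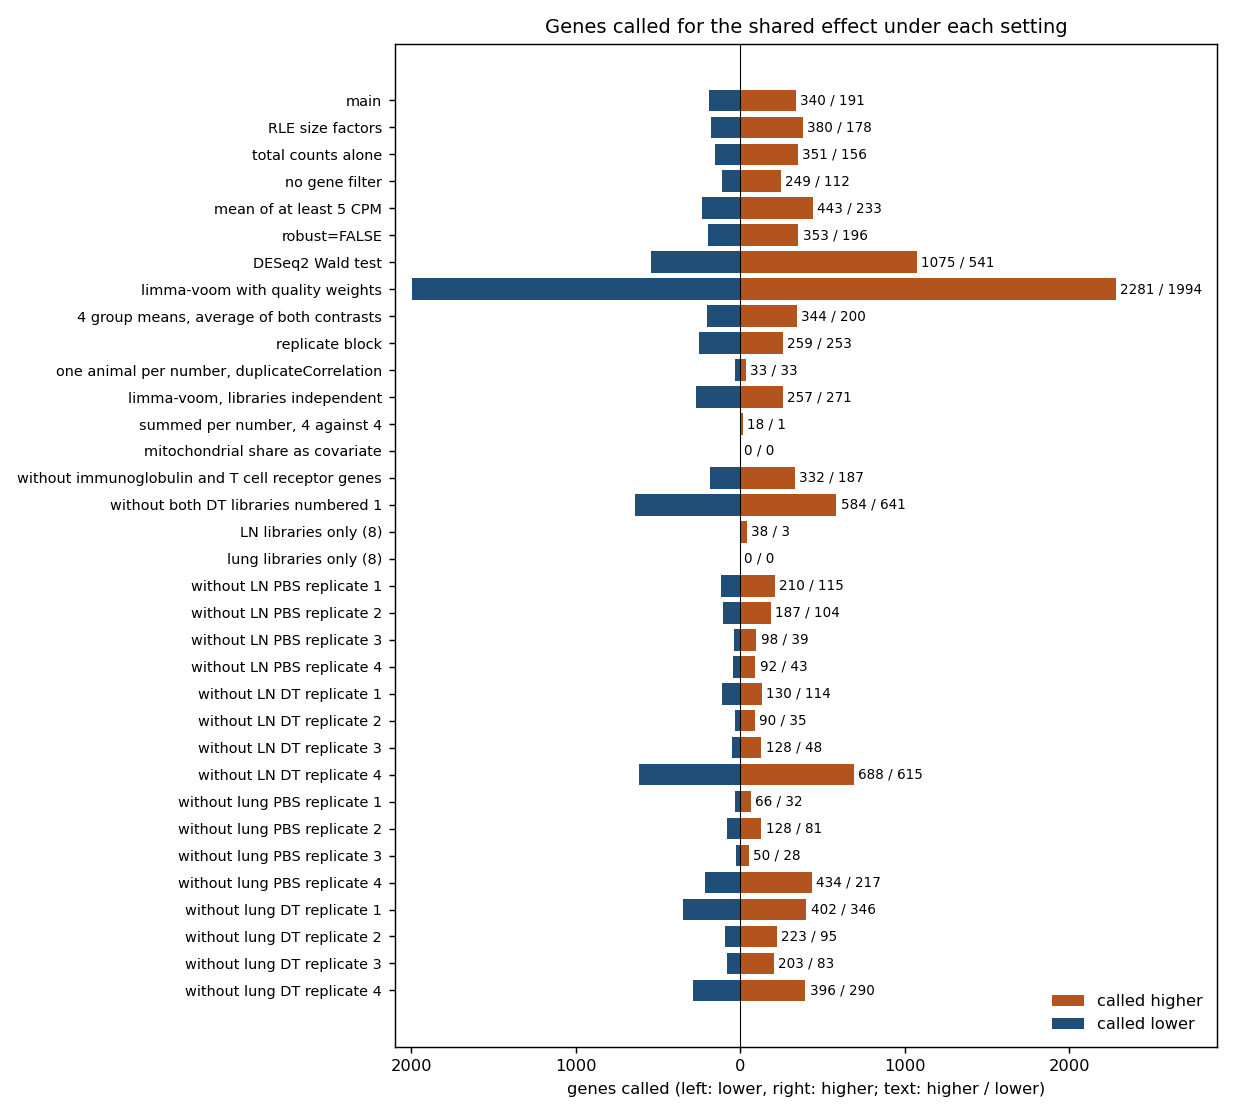
Genes called higher (right of 0) and lower (left of 0) for the shared effect under the reported fit (340 and 191) and each alternative, with both counts printed beside each bar. Counts run from 0 and 0, with the mitochondrial share as covariate or the lung libraries alone, to 2281 and 1994 with limma-voom and quality weights.

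A difference between the tissues in the effect of DT was tested for every gene, and 1 of 13940 (0.00717%) passed. Counts of Zfp882, which encodes a zinc finger protein, summed to 390 with PBS and 455 with DT in LN, and to 528 with PBS and 2 with DT in lung. Its fold changes were 0.47 in LN and -7.63 in lung, which differed by 8.10 (adjusted p = 0.0215), and it was not called in the shared effect (-2.66, adjusted p = 0.251). Of the 340 genes that rose 16 had an unadjusted interaction p under 0.05 and 0 an adjusted one, and of the 191 that fell 7 and 0.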

How the data were processed

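RNA was counted in 16 libraries of sorted NK cells, 4 in each of 4 groups. The values the authors deposited are raw read counts per Ensembl gene, 1 column per library, and all 16 columns were used. HISAT2, HTSeq and the build GRCm38 are listed per the submitters' processing notes; not given in the sources used here are their versions, the annotation and the strand setting. Names, biotypes and exon lengths come from GENCODE M21, which matched 49326 of 49671 identifiers. No library had a count for 23342 genes.

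Genes were kept by filterByExpr (by group, minimum count 10, minimum total 15), and 13940 remained. Library sizes were scaled by TMM, and the counts were fitted with edgeR 4.0.16 in R 4.3.3 (quasi-likelihood, robust) as tissue plus treatment, on 13 residual degrees of freedom. The common biological coefficient of variation was 0.624. The effect in each tissue and the difference between tissues come from a model of 4 group means. CPM use the TMM-scaled library size, and a standard error is the fold change over the root of F. Alternatives used limma 3.58.1 and DESeq2 1.42.0. Depth limits low genes, and intervals on summed counts cover counting error only.

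On simulated counts the shared test recovered 20.5%, 72.2% and 75.0% of 2-, 4- and 8-fold changes among 13446 genes, with 9 false calls. The simulated libraries were independent and had no tissue effect, so these figures do not give the error rate in the real libraries. Named genes are, per direction, up to 15 called genes of smallest p with at least 10 CPM in the higher treatment and the same sign in both tissues. Not eligible were predicted genes, segments of immunoglobulins or T cell receptors, and other cells' markers. The 3 members of smallest p in each list and a fixed set could be named too, and called list members were named in full after their values were seen, as were Xist, AI593442, Plac8 and Zfp882. The 41 lists, their members and the comparison were chosen with earlier results of these data known. Results for some genes are not reported here. Promoters were to be shown for the list with the largest share called. That was the mitochondrially encoded genes, which have no entry, so the next list, mitosis, was used. Promoter sequences are RefSeq's (GRCm38.p6).

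Per library values were compared by exact two-sided permutation within tissue, and by permuting same-numbered pairs. Same-numbered DT and PBS libraries did not all deviate together (correlations over genes from 0.029 to 0.145 in LN and from -0.127 to 0.207 in lung), so the number was no block in the reported fit.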

Additional observations from a re-analysis of the deposited data

Results flagged for a closer look

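For 50 values, each in 4 groups of 4 libraries (200 groups), the highest or lowest library was set against the other 3, and chance marks about 1 in 20 groups. A marked library lay far from the other 3 of its group. Dtl was lowest in lung DT 3 (41.4 CPM), and Top2a was highest in lung DT 1 (382.5 CPM). Ccl9 (52.6 CPM) and Neb (34.3 CPM) were highest in LN DT 1, and Nsd2 was highest in lung PBS 4 (66.9 CPM). Laptm4a (137.6 CPM) and Ltb (726 CPM) were highest in LN DT 4.

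Malat1 was low in LN PBS 3 (2197 CPM) and high in lung DT 1 (17160 CPM). Foxp3 was highest in LN PBS 1 (9 counts) and lung DT 4 (4 counts, the others 0). Among markers of other cells, lung PBS 2 was highest of the lung PBS group for the immunoglobulin share (0.0334% of counts), for the plasma cell sum (265 CPM) and for the macrophage and monocyte sum (6752 CPM). T cell sums were highest in LN DT 1 (4080 CPM) and lung DT 1 (2265 CPM), and the regulatory T cell sum in LN DT 1 (694 CPM). LN PBS 3 was highest of the LN PBS group for macrophage and monocyte (818.5 CPM), neutrophil (128.6 CPM), epithelial (245.5 CPM) and erythroid (29.9 CPM) sums.

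The effect of DT on Zfp882 differed between LN and lung by 8.10 on the log2 scale (edgeR interaction, adjusted p = 0.0215).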

How the results depend on the processing

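The shared effect gave 340 higher and 191 lower genes, and most settings moved these counts. Higher and lower were 1075 and 541 with the Wald test of DESeq2, 2281 and 1994 with limma-voom and quality weights, and 33 and 33 with one animal per number. They were 18 and 1 with summed counts, 0 and 0 with the mitochondrial covariate, and 584 and 641 without both DT libraries numbered 1. Without a gene filter 249 were higher and 112 lower. Fits added after seeing the data gave 38 and 3 from LN libraries alone, 0 and 0 from lung libraries alone, and 257 and 271 from limma-voom with independent libraries. Leaving out one library gave 50 to 688 higher and 28 to 615 lower. Median-ratio size factors (380 and 178), total counts alone (351 and 156), a mean of at least 5 CPM (443 and 233), robust=FALSE (353 and 196), no immunoglobulin or T cell receptor genes (332 and 187) and 4 group means (344 and 200) stayed within 1.5 times. Falls made up 35.97% of the reported calls, 31.9% with median-ratio size factors and 30.8% with total counts alone. The median of all tested genes was 0.09 with TMM and 0.12 with both other scalings.

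With the replicate block, the number as a term, 259 genes were higher and 253 lower, of which 230 and 171 were among the reported ones. In LN the block gave 7 higher and 0 lower, in lung 9 and 4, and for the tissue difference 0 and 0.

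In LN alone (9 and 0) no filter gave 23 higher, DESeq2 264 and 62, and leaving out one library 0 to 74 and 0 to 48. In lung alone (8 and 7) DESeq2 gave 275 and 181, no filter 10 and 12, and leaving out one library 0 to 49 and 1 to 80. For the tissue difference (1 and 0) DESeq2 gave 18 and 1, and leaving out one library 0 to 3 and 0. At an unadjusted p under 0.05 the interaction test of edgeR gave 586 genes. The cause of these moves was not tested. Some settings also leave another number of libraries or genes.

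Of the values of 150 single genes under the alternatives, 4047 kept direction and call, 724 (78 genes) kept direction and lost the call, 136 (45 genes) gained it and 1 reversed: Malat1 was at -0.25 with the mitochondrial covariate. Depth limits genes of few counts such as Il4, with 3 counts over the 8 PBS libraries.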

Other observations

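A rise outside the lists was chosen after its values were seen. Plac8, which encodes a small cysteine-rich protein of myeloid cells and lymphocytes, lay at 10.3, 14.8 and 64.9 CPM (lowest, median, highest of 8) with PBS and at 34.1, 170.6 and 801 with DT, a log2 fold change of 3.34 (edgeR adjusted p = 0.00683). Of the rising genes 69.7% were protein-coding, against 97.4% of the falling ones and 82.9% of all tested.

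Genes with an unadjusted p under 0.05 in 1 tissue were compared with the sign of the other. Of 1155 such genes higher in LN 89.5% were also above 0 in lung, and of 491 lower in LN 92.3% were below 0. Of 1068 higher in lung 86.7% were above 0 in LN, and of 984 lower in lung 81.3% were below 0. Over all tested genes 70.5% had the same sign in both.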
